A study of Mus musculus with 8 samples.

Results

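Nfe2l2, which encodes the transcription factor Nrf2, its inhibitor Keap1 and 8 textbook target genes of Nrf2 (Srxn1, Txnrd1, Nqo1, Hmox1, Gclc, Gclm, Gsr and Slc7a11) were followed in mouse embryonic stem cells (mESCs) grown in space or on the ground. The genes were chosen by symbol, and each was found once among the deposited gene identifiers, 10 of 50686 in all. Wild-type (R9wt) and Rad9-/- (R9del) cells were each grown at either location and harvested after 1 day (D1) or 5 days (D5), and each of the 8 resulting cultures gave 1 bulk RNA library, named here in the form Space_R9del_D5. Space cultures flew on the SJ-10 satellite, ground cultures went through the same procedure in the same kind of payload, and all cells were fixed at the end of culture. D1 and D5 devices sat on separate temperature controllers and were seeded with different cell numbers, and for D5 more R9del than R9wt cells were seeded, so duration, device group and seeding cannot be told apart. The groups compared were the 4 Space against the 4 Ground libraries, the 4 R9del against the 4 R9wt libraries, and the 4 D5 against the 4 D1 libraries.

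Nrf2 is a basic leucine zipper factor that is made all the time and, in resting cells, is held by Keap1, an adaptor that feeds it to a Cul3 ubiquitin ligase for destruction. Oxidants and electrophiles modify cysteines of Keap1, Nrf2 then builds up, pairs with a small Maf protein and binds antioxidant response elements near genes for thioredoxin and glutathione metabolism, quinone reduction and heme breakdown. Because this control acts mostly on the protein, the mRNA level of Nfe2l2 itself is not a readout of Nrf2 activity, and no protein or redox state was measured in these libraries.

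Rad9a, the gene deleted in R9del cells, had TMM-scaled CPM (read counts scaled to equal library size) of 93.4 in Ground_R9wt_D1, 85.9 in Ground_R9wt_D5, 89.3 in Space_R9wt_D1 and 70.3 in Space_R9wt_D5. In the R9del libraries it had 23.3 in Ground_R9del_D1, 28.6 in Ground_R9del_D5, 20.8 in Space_R9del_D1 and 26.9 in Space_R9del_D5, so the genotype groups did not overlap. In edgeR it fell by 1.77 on the log2 scale (SE 0.21, adjusted p = 0.027, lower in 4 of 4 pairs), and the adjusted p was above 0.05 without Ground_R9del_D1 (0.105), Ground_R9wt_D5 (0.0718), Space_R9del_D1 (0.0744) or Space_R9wt_D1 (0.0875). Of the Rad9a exon length, 10.8% is overlapped by Ppp1ca in the mm9 gene models. The markers of the labelled cell type were present: 10 of 10 mESC markers averaged at least 1 CPM, their sum ran from 4493 CPM in Space_R9wt_D1 to 8255 CPM in Ground_R9wt_D1, and Dppa5a was the most abundant at 2102 CPM, though 64.6% of its 50-base stretches have a copy elsewhere, which makes its level uncertain. Library totals were 91390994, 96416907, 65678502 and 72077524 counts for Ground R9wt D1, R9wt D5, R9del D1 and R9del D5, and 64673127, 60801746, 67640365 and 58238440 counts for the same cultures in space.

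Per kb of exon, the mean level over the 8 libraries was highest for Hmox1 at 112 CPM per kb and lowest for Slc7a11 at 0.717 CPM per kb. Between them came Txnrd1 at 53.6, Nfe2l2 at 36.7, Nqo1 at 18.9, Gsr at 18.5, Srxn1 at 13.4, Gclc at 13.1, Keap1 at 6.38 and Gclm at 5.09 CPM per kb. Each of the 10 genes passed the filter on low counts in each comparison, and the smallest count of any of them in a library was 143. The libraries are bulk RNA, so fewer expressing cells and less RNA per cell cannot be told apart. In the mm9 gene models, Srxn1 (ENSMUSG00000032802) has 2 exons at chr2:151931252-151937112 on the plus strand, Gsr (ENSMUSG00000031584) has 15 at chr8:34762995-34808635 on the plus strand, and Nqo1 (ENSMUSG00000003849) has 6 at chr8:109912125-109927106 on the minus strand. In the paragraphs on single genes that follow, the values run in the order R9wt D1, R9wt D5, R9del D1, R9del D5.

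Nfe2l2, the regulator, stood at 92.5, 184.5, 89.8 and 126 CPM on the ground and at 150.4, 249, 104 and 118 CPM in space. Its highest values were in the R9wt D5 cultures of both locations, and the Space and Ground values overlapped. Keap1, the inhibitor, stood at 32.3, 14.2, 35.9 and 36.9 CPM on the ground and at 18.4, 43.3, 20.7 and 26.6 CPM in space. The lowest and the highest Keap1 value both came from R9wt D5 cultures, the lowest on the ground and the highest in space. Of the Keap1 exon length, 11.4% is overlapped by another gene model, so part of its count may belong elsewhere.

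Srxn1 encodes sulfiredoxin, which restores peroxiredoxins whose cysteine has been overoxidised. It stood at 39.0, 19.2, 89.9 and 96.4 CPM on the ground and at 10.3, 19.4, 11.9 and 15.2 CPM in space. Both ground R9del cultures were far above the other 6 libraries, and the groups overlapped only through R9wt D5, where space and ground were nearly equal. Txnrd1, the cytosolic thioredoxin reductase, stood at 272, 195, 193 and 231 CPM on the ground and at 211, 328, 115 and 178 CPM in space. Its highest library was Space_R9wt_D5 and its lowest Space_R9del_D1, with the ground values between.

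Nqo1, a quinone reductase, stood at 20.7, 14.8, 43.3 and 43.2 CPM on the ground and at 9.44, 29.9, 41.2 and 32.7 CPM in space. Every R9del library was above every R9wt library, by the least between Space_R9del_D5 and Space_R9wt_D5. Hmox1, heme oxygenase 1, stood at 246, 81.0, 346 and 207 CPM on the ground and at 237, 251, 350.1 and 215 CPM in space. Space and ground were close in 3 of the 4 pairs, and the exception was R9wt D5, where the ground library was the lowest of the 8.

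The glutathione genes cover cystine uptake, synthesis and recycling. Gclc, the catalytic subunit of glutamate-cysteine ligase, stood at 54.9, 53.9, 41.3 and 45.02 CPM on the ground and at 43.2, 49.7, 39.0 and 33.0 CPM in space. It varied least of the 10 genes, by 1.66-fold from lowest to highest library, against 9.37-fold for Srxn1. Gclm, the modifier subunit, stood at 26.8, 15.1, 48.0 and 39.0 CPM on the ground and at 20.3, 30.3, 21.9 and 7.64 CPM in space. Space was above ground for Gclm in the R9wt D5 pair alone. Its count is less certain, since another gene model overlaps 5.76% of its exon length and 6.30% of its 50-base stretches have a copy elsewhere. Gsr, glutathione reductase, stood at 67.1, 51.5, 47.5 and 109 CPM on the ground and at 21.4, 47.1, 31.9 and 32.7 CPM in space. Every ground library was above every space library, narrowly so between Ground_R9del_D1 and Space_R9wt_D5. Slc7a11, the cystine and glutamate antiporter, stood at 9.04, 6.80, 9.46 and 8.76 CPM on the ground and at 2.14, 9.24, 7.35 and 11.7 CPM in space. Space_R9wt_D1 lay below the other 7 libraries, and 4.72% of the 50-base stretches of Slc7a11 occur elsewhere. The plot of the 10 genes by library shows these values.

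**Figure D1:**
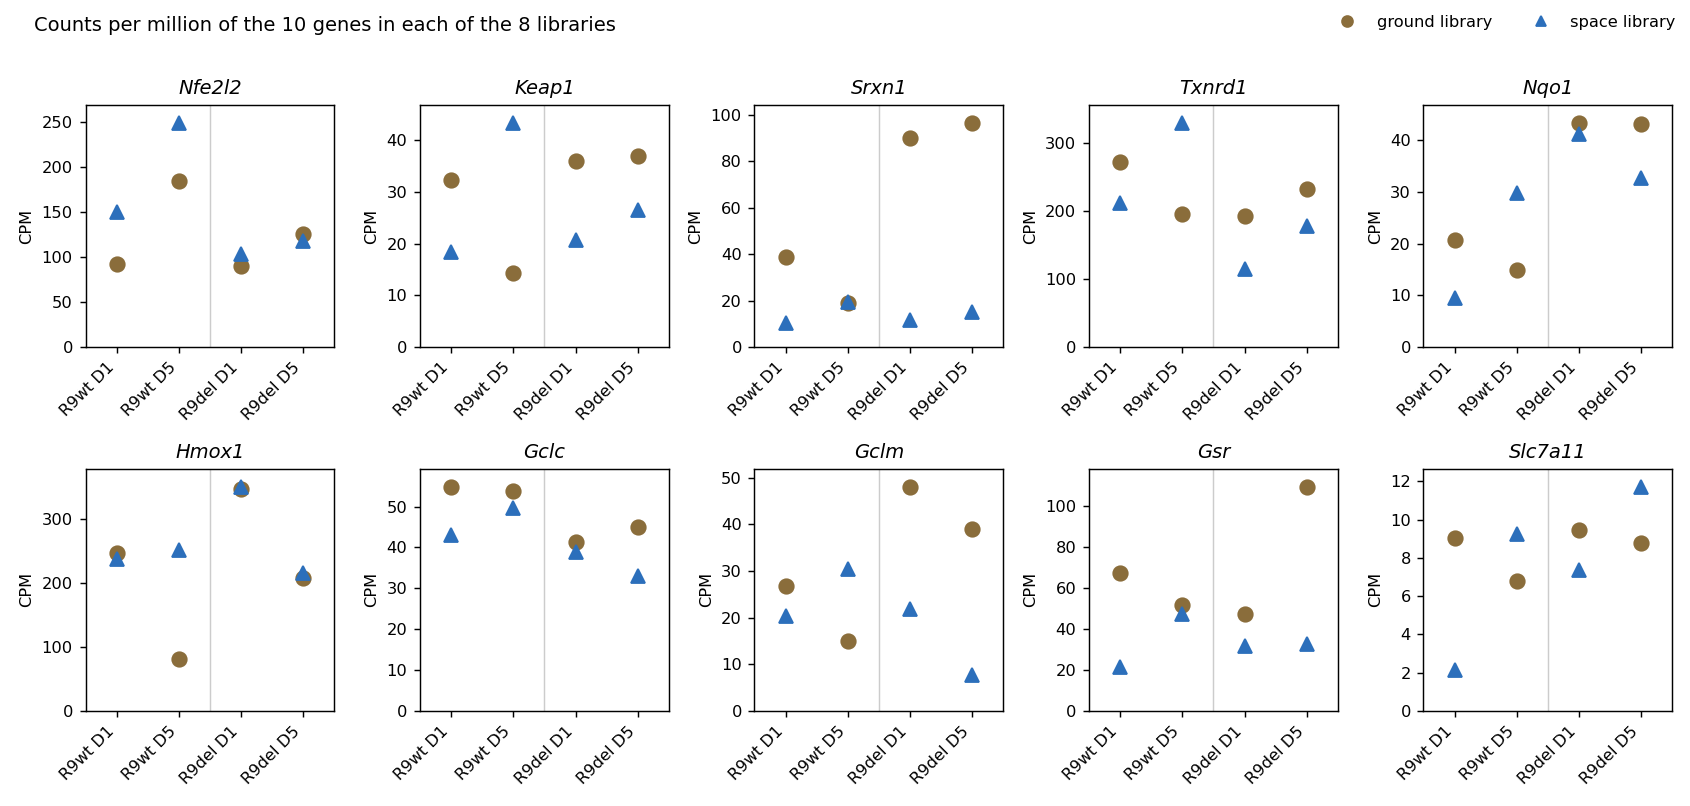
TMM-scaled CPM of the 10 genes in the 8 libraries, with culture on the horizontal axis, ground as circles and space as triangles. Srxn1 reaches 96.4 CPM in Ground_R9del_D5 against 15.2 CPM in Space_R9del_D5, and Nqo1 lies between 32.7 and 43.3 CPM in the R9del libraries.

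The comparison of space with ground asks how spaceflight relates to gene expression across both genotypes and both durations. Of the 10 genes, Srxn1 fell in space, from a mean of 61.1 ± 37.9 CPM (SD, n = 4) on the ground to 14.2 ± 4.02 CPM (SD, n = 4). Gsr was lower in space in 4 of 4 pairs, with means of 68.8 ± 28.2 and 33.3 ± 10.6 CPM (SD, n = 4), and passed the threshold of the study but not an adjusted p under 0.05. Nfe2l2 and Keap1 passed neither. The other 6 target genes passed neither as well, so the call in space was of 1 target gene of 8. With matched cultures as a block, 0 of the 10 genes were called by adjusted p.

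The fit was edgeR's quasi-likelihood test on all genes, with p adjusted by Benjamini-Hochberg over 20544 genes, of which 1297 or 6.31% passed 0.05. Of these, 1091 were lower in space (5.31%) and 206 higher (1.00%), against 1 and 0 of the 10 genes. The threshold of the study, a fold of at least 2 with p under 0.05, was read here as unadjusted p. It took 8.39% of genes as lower and 2.58% as higher, against 2 and 0 of the 10. The share of called genes among the 10 is therefore close to the background, given so few genes. These p-values pool different genotypes and durations, since each condition had 1 library and no replicate culture, and intervals and standard errors of this kind rest on 4 unlike libraries a group.

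Srxn1 fell by 2.11 on the log2 scale (SE 0.48, adjusted p = 0.0288), lower in 3 of 4 pairs, and the two-sided exact permutation test of the gene alone gave p = 0.0571, where 0.0286 is the smallest it can give. With matched cultures as a block, its log2 fold change was -1.92 with adjusted p = 0.0508. Leaving out a library moved its adjusted p to 0.0778 without Ground_R9del_D1, 0.0916 without Ground_R9del_D5, 0.0811 without Space_R9wt_D1, 0.0569 without Space_R9wt_D5, 0.0823 without Space_R9del_D1 and 0.0773 without Space_R9del_D5. Its adjusted p ran from 0.000695 to 0.0916 over all alternatives, with the log2 fold change between -2.405 and -1.801 in each. Gsr had a log2 fold change of -1.05 (SE 0.33, adjusted p = 0.103 in edgeR), with an exact permutation p = 0.0286. Its log2 fold change was -0.73 without Ground_R9del_D5 and -0.88 without Space_R9wt_D1, under a fold of 2 in both, and edgeR's exact test gave an adjusted p of 0.0498 within a range of 0.0498 to 0.280. Gsr was the 1 gene of the 10 whose space and ground values did not overlap, which was so for 14.4% of all genes tested.

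Among the genes that passed neither threshold, Gclm had a log2 fold change of -0.68 (SE 0.45), higher in space in 1 of 4 pairs. Gclc was lower in 4 of 4 pairs by a small amount, with a log2 fold change of -0.24 (SE 0.21). Nfe2l2 had 0.33 (SE 0.33) and Hmox1 0.26 (SE 0.37), each higher in 3 of 4 pairs. Keap1, Txnrd1, Nqo1 and Slc7a11 lay between -0.16 and -0.10, with standard errors of 0.30 to 0.48, wider than the values themselves. The median log2 fold change was -0.15 over the 10 genes, against 0.01 over all genes tested.

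**Figure D2:**
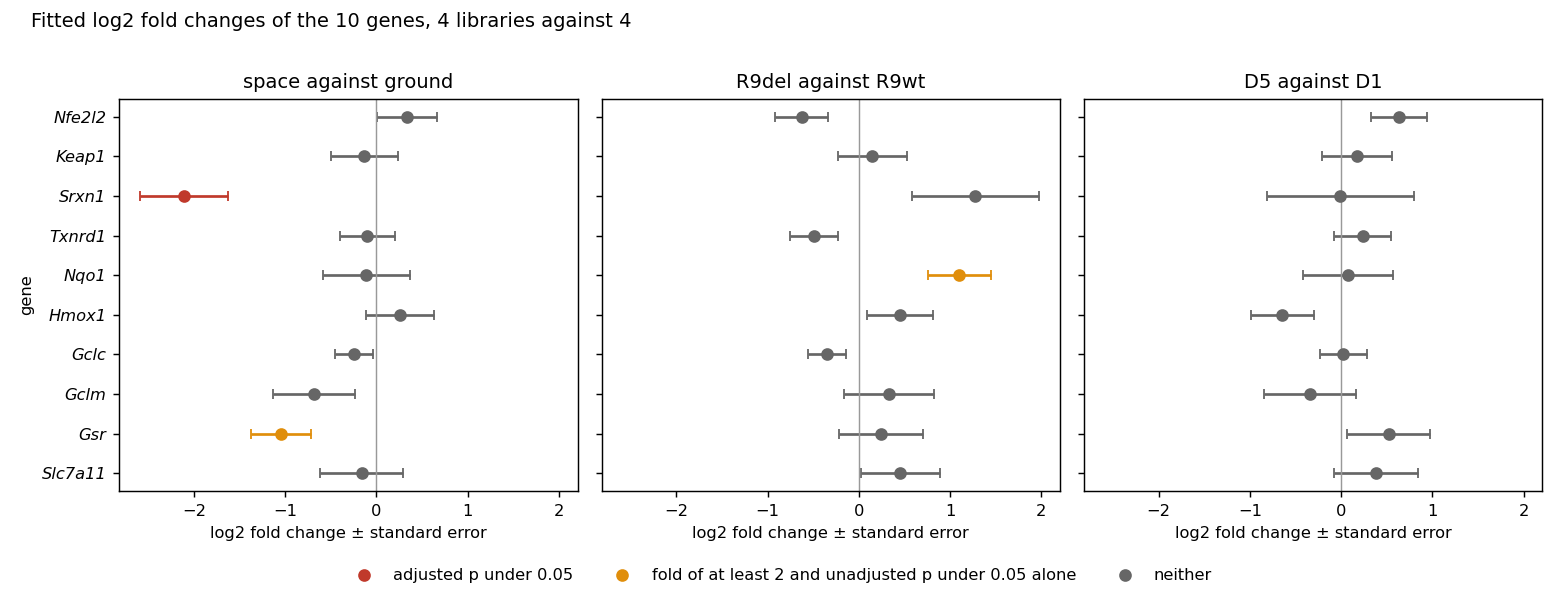
Log2 fold changes of the 10 genes in the 3 comparisons, 4 libraries against 4, with bars of 1 standard error. Srxn1 at -2.11 in space against ground has an adjusted p under 0.05, while Gsr at -1.05 in the same comparison and Nqo1 at 1.10 in R9del against R9wt passed the threshold of the study alone.

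The promoters of Srxn1, the called gene, and of Nqo1, the gene that separated the genotypes, are shown because both are textbook Nrf2 targets. The sequences are from RefSeq in build GRCm38.p6, 250 bases before to 50 after the annotated start, 5′ to 3′ on the strand of the gene: Srxn1 at chr2:152105274-152105573 on the plus strand and Nqo1 at chr8:107403156-107403455 on the minus strand. Capitals mark matches to the core letters of the antioxidant response element, TGACNNNGC or TGAGNNNGC, on either strand. Both motifs overlap the letters that AP-1 and small Maf factors read. Capitals read on the other strand appear as their reverse complement.
Srxn1: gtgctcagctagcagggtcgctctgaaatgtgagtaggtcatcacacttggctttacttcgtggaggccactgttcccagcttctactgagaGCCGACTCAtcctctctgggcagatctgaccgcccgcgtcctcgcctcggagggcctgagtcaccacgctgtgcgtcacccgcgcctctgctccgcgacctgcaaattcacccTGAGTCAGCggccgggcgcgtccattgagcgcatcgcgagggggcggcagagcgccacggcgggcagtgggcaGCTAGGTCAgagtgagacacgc
Nqo1: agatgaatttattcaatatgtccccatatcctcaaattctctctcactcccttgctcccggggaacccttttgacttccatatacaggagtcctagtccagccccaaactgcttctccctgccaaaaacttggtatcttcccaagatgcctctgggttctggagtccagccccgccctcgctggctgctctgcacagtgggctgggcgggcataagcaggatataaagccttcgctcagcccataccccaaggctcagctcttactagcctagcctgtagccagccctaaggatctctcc
The Srxn1 window held TGAGNNNGC at -45 to -37 on the strand of the gene and at -158 to -150 on the other, and TGACNNNGC at 29 to 37 on the other strand. The Nqo1 window held neither. Of all 32851 promoter windows in the table, 12.4% held TGACNNNGC, 17.6% held TGAGNNNGC and 27.8% held either. RefSeq windows were listed for 7 of the 10 genes, 5 of which held either motif: Srxn1, Nfe2l2, Slc7a11, Gclm and 1 of the 3 windows of Txnrd1. Keap1 held neither, and Hmox1, Gclc and Gsr were not in the table. A match is a run of letters, and what binds there was not measured.

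Around these genes, 43 further genes of the pathway in 7 lists were read from the same fit. In space against ground, 3 of the 43 passed the adjusted p in edgeR, all lower, where 5.31% of all genes tested did so as lower. The median log2 fold change of the 43 was -0.13, against 0.01 over all genes tested. By list, 0 of 6 turnover genes and 1 of 5 partners and relatives fell. In the thioredoxin list (Txn1, Prdx1, Prdx6, Sesn2 and Osgin1) 0 of 5 fell, and in the glutathione list 0 of 8. Of the rest, 0 of 6 NADPH genes, 1 of 8 quinone and xenobiotic enzymes and 1 of 5 heme and iron genes fell. In the same lists 2 genes passed the threshold of the study as lower, Maff and Cbr3, and 1 as higher, Sesn2, against 8.39% and 2.58% of all genes. With so few genes these counts are near the background.

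Cbr3, a carbonyl reductase, stood at 33.1, 21.2, 49.4 and 44.9 CPM on the ground and at 3.36, 8.98, 4.48 and 5.50 CPM in space. All 4 ground cultures were above all 4 space cultures, and Cbr3 fell by 2.73 on the log2 scale (SE 0.39, edgeR adjusted p = 0.0022, lower in 4 of 4 pairs). Maff, a small Maf partner of Nrf2, stood at 46.1, 49.1, 9.46 and 20.2 CPM on the ground and at 6.76, 4.96, 2.47 and 3.64 CPM in space. Its groups did not overlap either, and it fell by 2.81 on the log2 scale (SE 0.55, edgeR adjusted p = 0.0128, lower in 4 of 4 pairs). Fth1, the ferritin heavy chain, stood at 791, 746, 861 and 638 CPM on the ground and at 481, 452, 439 and 482 CPM in space. It fell by 0.71 on the log2 scale (SE 0.17, edgeR adjusted p = 0.0346, lower in 4 of 4 pairs), and 9.25% of its 50-base stretches occur elsewhere.

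Cbr3 and Maff kept an adjusted p under 0.05 in every alternative fit, up to 0.0119 for Cbr3 and 0.0499 for Maff. The call of Fth1 was lost with library size alone (adjusted p = 0.0545), with no filter (0.0639) and without any of 7 libraries, the exception being Ground_R9wt_D5, with adjusted p up to 0.106 without Ground_R9del_D1, in a range from 0.0047. Sesn2, a sestrin, stood at 86.0, 82.3, 139 and 148 CPM on the ground and at 182, 142, 394 and 353 CPM in space. It was higher in space in 4 of 4 pairs, with overlapping groups, and had a log2 fold change of 1.23 (SE 0.36, adjusted p = 0.0806 in edgeR) or 1.16 with matched cultures as a block (adjusted p = 0.00805, within a range of 0.00332 to 0.217). The other small Maf genes had positive log2 fold changes, 0.73 for Mafg (SE 0.21, edgeR adjusted p = 0.0733, higher in 4 of 4 pairs) and 0.53 for Mafk (SE 0.38).

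**Figure D3:**
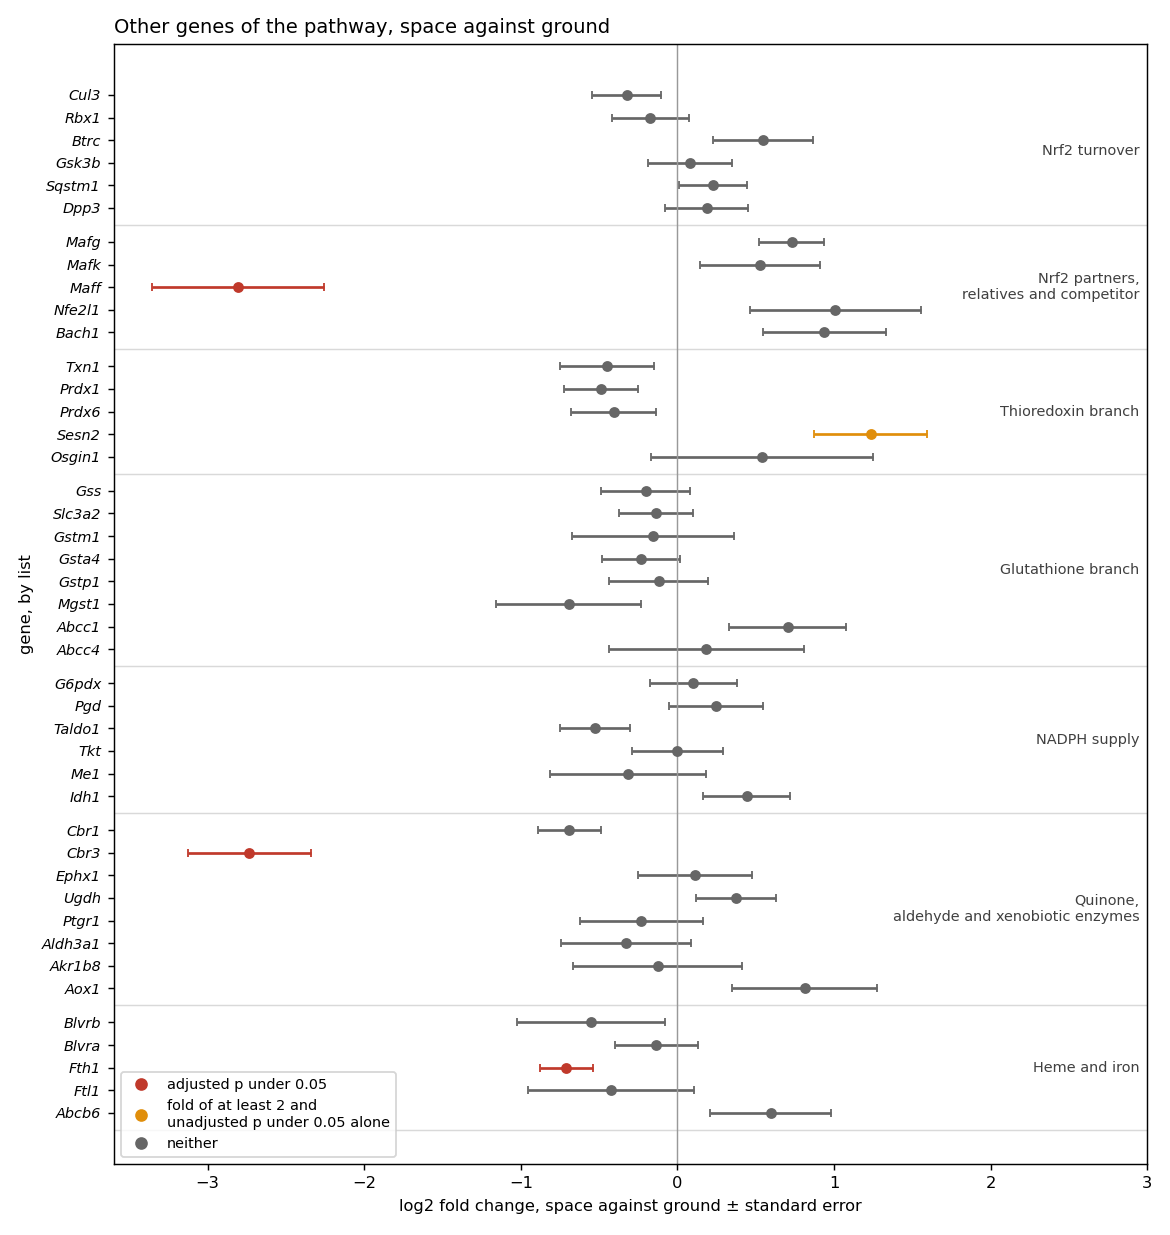
Log2 fold changes of 43 further pathway genes in space against ground, grouped by list, with bars of 1 standard error. Maff at -2.81, Cbr3 at -2.73 and Fth1 at -0.71 have an adjusted p under 0.05, and Sesn2 at 1.23 passed the threshold of the study alone.

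The genes lower in space were not spread evenly over base composition. For 17548 of the tested genes, 85.4%, the GC content of the most GC-rich 200-base window of the exons could be read from the mm9 genome, a property chosen after the data were seen. Of the 2467 genes whose richest window held 75 to under 80% GC, 20.7% were called lower in space. The share was 8.82% at 70 to under 75% and 7.90% at 80% and over, and in the 3 classes under 70% it lay between 0.797% and 1.48%. In R9del against R9wt the share called lower lay between 0.448% and 1.26% over the 6 classes.

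Srxn1 and Maff were in the class with the largest share, with richest windows of 77.0% GC, and Cbr3 and Fth1 were in the class below it, each at 70%. The richest windows of Txnrd1 (75.5%), Keap1 (80.5%), Gclm (81.5%), Gsr (82.5%) and Gclc (83.5%) were also over 70%, while those of Nfe2l2 (68.0%), Hmox1 (65%), Slc7a11 (58.5%) and Nqo1 (55.0%) were under it. Thus 6 of the 10 genes had such a window, and of these only Srxn1 was called. The part of base composition in the lower values of Srxn1, Gsr, Cbr3, Maff and Fth1 was not tested.

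**Figure D4:**
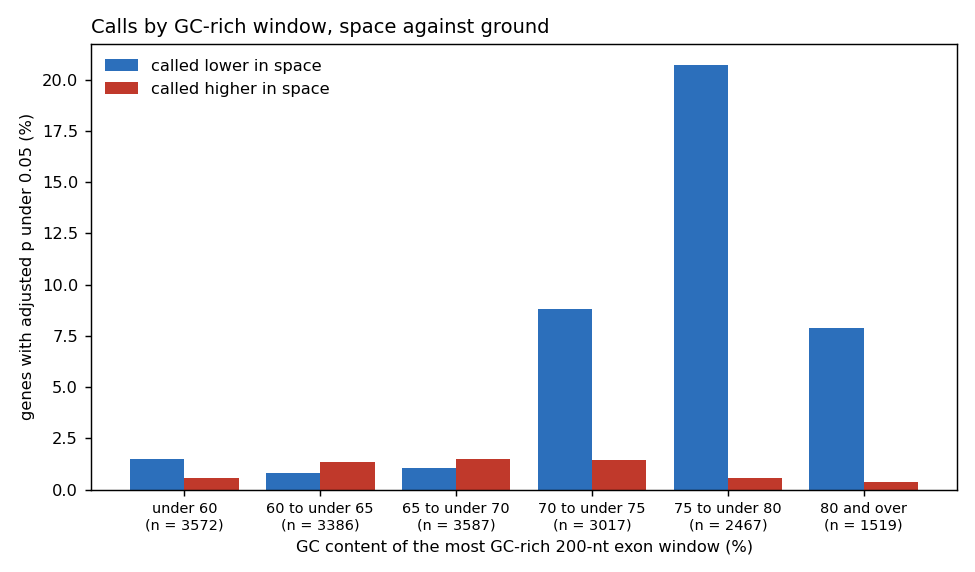
Share of genes with an adjusted p under 0.05 in space against ground, in percent, by GC content of the most GC-rich 200-base exon window. Genes called lower reach 20.7% at 75 to under 80% GC, and genes called higher reach at most 1.48% in any of the 6 classes.

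Some cell type markers also differed between space and ground, by edgeR's adjusted p. Of the 10 mESC markers Esrrb rose by 1.16 on the log2 scale (SE 0.21, adjusted p = 0.00794, higher in 4 of 4 pairs) and Sox2 fell by 0.97 (SE 0.22, adjusted p = 0.0269, lower in 4 of 4 pairs), while Fgf4 passed the threshold of the study alone, as lower. Of the 10, 7 had log2 fold changes below 0, with a median of -0.45. Sox17 of the 7 primitive endoderm markers fell by 3.92 (SE 0.81, adjusted p = 0.0181) and Cdx2 of the 5 trophoblast markers by 3.02 (SE 0.71, adjusted p = 0.032), both lower in 4 of 4 pairs and at low levels of at most 6.11 and 2.93 CPM. The primitive endoderm list as a whole did not follow Sox17: 4 of its 7 log2 fold changes were above 0, their median was 0.34, and the means of the more abundant Dab2 and Sox7 were 66.3 and 12.8 CPM in space against 21.6 and 4.43 CPM on the ground, passing neither threshold. Of the 4 trophoblast markers tested 2 were above 0, with a median of -0.12, and Gata3 had means of 31.2 CPM in space against 12.4 CPM on the ground, passing neither threshold. The sum of the 5 mesendoderm markers, 16.8, 16.5, 7.62 and 17.5 CPM on the ground and 14.8, 33.6, 6.61 and 7.75 CPM in space, was led by Eomes at 11.8 CPM, and of the 5, Gsc passed the threshold of the study as lower and not the adjusted p. Of the 5 mesendoderm log2 fold changes 4 were below 0, with a median of -0.73. All 4 early neural ones were above 0, with a median of 0.22. So were 3 of the 4 fibroblast markers tested, with a median of 0.41. The part of these markers in the values of the 10 genes was not tested.

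The comparison of R9del with R9wt asks what goes with loss of Rad9. Nqo1 was higher in R9del, at 40.1 ± 5.03 against 18.7 ± 8.73 CPM (SD, n = 4), in 4 of 4 pairs, and passed the threshold of the study but not an adjusted p under 0.05. Nfe2l2 and Gclc were lower in R9del in 4 of 4 pairs and Slc7a11 was higher in 4 of 4, and these 3 genes passed neither threshold. By adjusted p in edgeR, 0 of the 10 genes were called, with 1 of them and 4155 of all 20544 genes at an unadjusted p under 0.05. DESeq2's Wald test called 1, Nqo1, among 2054 of all genes, and edgeR's exact test called 0 among 1439. Over all genes, 371 or 1.81% passed the adjusted p, and the threshold of the study took 7.63% as lower and 6.17% as higher, against 0 and 1 of the 10.

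Nqo1 had a log2 fold change of 1.10 (SE 0.35, adjusted p = 0.125 in edgeR), with an exact permutation p = 0.0286. DESeq2 gave it an adjusted p of 0.0337 within a range of 0.0337 to 0.283, and without Space_R9wt_D1 its log2 fold change was 0.89, under a fold of 2. It was the 1 gene of the 10 without overlap between genotypes, as were 14.3% of all genes. Srxn1 had a log2 fold change of 1.28 with a standard error of 0.70, from 53.3 ± 46.1 CPM (SD, n = 4) in R9del and 22.0 ± 12.1 CPM (SD, n = 4) in R9wt. That spread is as wide as the difference, since the high R9del values were the ground libraries, and Srxn1 passed the threshold of the study without Space_R9del_D1 or without Space_R9del_D5. For Nfe2l2 the log2 fold change was -0.63 (SE 0.29), for Txnrd1 -0.49 (SE 0.27) and for Gclc -0.35 (SE 0.21). The median over the 10 genes was 0.29, against -0.06 over all genes tested.

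The number of genes called over the whole table rested on single libraries: it was 0 without Ground_R9wt_D5, Ground_R9del_D1, Space_R9wt_D1 or Space_R9del_D1, 88 without Ground_R9del_D5, 91 without Space_R9wt_D5, 99 without Space_R9del_D5 and 525 without Ground_R9wt_D1. With matched cultures as a block it was 1670, with 0 of the 10 genes among them.

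Of the 43 further pathway genes, 1 passed the adjusted p in R9del against R9wt, as lower, where 157 of all 20544 genes passed it as lower, and their median log2 fold change was -0.32. The one that fell was Ftl1, the ferritin light chain, at 8248, 16114, 4475 and 4086 CPM on the ground and 11627, 6164, 2812 and 3927 CPM in space. Its R9wt and R9del values did not overlap, and it fell by 1.46 on the log2 scale (SE 0.31, edgeR adjusted p = 0.0489, lower in 4 of 4 pairs). The call was lost with library size alone (adjusted p = 0.0505), with no filter (0.0584) and without any of 7 libraries, the exception being Ground_R9wt_D1, with adjusted p up to 0.151 without Space_R9del_D1, in a range from 0.00136. Of the 50-base stretches of Ftl1, 48.0% occur elsewhere in the genome, so its level is uncertain.

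The threshold of the study added Abcc4, Gstm1 and Mgst1 of the glutathione list, Osgin1 of the thioredoxin list and Blvrb, a biliverdin reductase, as lower in R9del, each in 4 of 4 pairs. Their log2 fold changes were -1.68 for Abcc4, an exporter, -1.29 for Gstm1 and -1.05 for Mgst1, both glutathione transferases, -1.56 for Osgin1 and -1.23 for Blvrb. It took Sesn2 and Akr1b8, an aldo-keto reductase, as higher, with log2 fold changes of 1.07 and 1.40, each in 4 of 4 pairs. With Ftl1 this makes 6 of 43 lower and 2 of 43 higher, against 7.63% and 6.17% of all genes. Apart from Ftl1, none of these genes passed the adjusted p in the quasi-likelihood fit of 4 against 4 libraries. With matched cultures as a block the adjusted p was 0.0417 for Abcc4, 0.0151 for Gstm1, 0.0161 for Blvrb, 0.0314 for Akr1b8 and 0.0198 for Sesn2. The log2 fold change of Sesn2 with the block was 0.993, just under a fold of 2. Over all alternatives the adjusted p ran from 0.0014 to 0.127 for Abcc4, 0.0104 to 0.213 for Gstm1, 0.0135 to 0.238 for Blvrb, 0.002 to 0.188 for Akr1b8 and 0.0191 to 0.413 for Sesn2. Mgst1 and Osgin1 passed it in no alternative, with ranges of 0.0690 to 0.378 and 0.0503 to 0.332. Leaving out 1 library took the log2 fold change as near 0 as 0.79 for Sesn2, -0.89 for Blvrb and -0.80 for Mgst1. Each of these is under a fold of 2, while Abcc4, Gstm1, Osgin1 and Akr1b8 stayed past that fold. Gstm1 shares 25.1% of its 50-base stretches with other places in the genome.

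Cell type markers also differed with genotype. The sum of 4 early neural markers was 47.9, 28.9, 115 and 102 CPM on the ground and 38.6, 27.0, 110.0 and 133 CPM in space. In the R9del libraries most of the sum was Tubb3, while Nes was the larger part in each R9wt library but Ground_R9wt_D1. Tubb3, the most abundant at 50.5 CPM, rose by 2.65 on the log2 scale in R9del (SE 0.43, edgeR adjusted p = 0.0336, higher in 4 of 4 pairs). Zic1 of the same list went the other way, at a mean of 0.33 CPM in R9del and 1.58 CPM in R9wt, and passed the threshold of the study as lower, while Pax6 and Nes passed neither. That threshold also took Eomes and T of the mesendoderm list as lower and Lhx1 as higher in R9del, Sox7 of the primitive endoderm list as higher (14.5 against 2.75 CPM) and the mESC marker Dppa5a as lower (1368 against 2836 CPM), none of them by adjusted p. As whole lists, primitive endoderm had 3 of 7 log2 fold changes above 0, with a median of -0.02, and the mESC markers had 7 of 10 above 0, with a median of 0.15. Mesendoderm had 4 of 5 below 0, with a median of -1.16, and trophoblast 3 of 4 tested below 0, with a median of -1.02. The early neural list had 3 of 4 above 0, with a median of 0.37. The part of these markers in the genotype values of Nqo1 and the other genes was not tested.

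The comparison of D5 with D1 asks what goes with longer culture. None of the 10 genes was called: edgeR's adjusted p called 0 of the 10 and 0 of all 20544 genes (0%), with 0 of the 10 and 898 of all genes at an unadjusted p under 0.05. DESeq2's Wald test called 96 genes and edgeR's exact test 35, with 0 of the 10 in either. The threshold of the study took 1.06% of genes as lower and 2.43% as higher, against 0 of the 10 in each direction, and 2.85% of genes had groups without overlap, again 0 of the 10. Nfe2l2 was higher on D5 in 4 of 4 pairs, at 169 ± 60.8 against 109 ± 28.2 CPM (SD, n = 4), a log2 fold change of 0.63 (SE 0.30). Hmox1 was lower on D5 in 3 of 4 pairs, at 189 ± 74.2 against 295 ± 61.5 CPM (SD, n = 4), a log2 fold change of -0.64 (SE 0.34). The median over the 10 genes was 0.12, against -0.01 over all genes, and of the 43 further genes 1, Me1, passed the threshold of the study as higher, with 32.3% of its 50-base stretches found elsewhere.

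Some markers of early differentiation were higher on D5 and others lower, and their part in the values above was not tested. The summed level of 7 primitive endoderm markers was 28.0, 47.2, 38.9 and 63.7 CPM on the ground and 13.2, 128, 57.4 and 196 CPM in space, in the order given above, and Dab2 was the most abundant at 43.9 CPM. The sum was higher on D5 in each pair, and 5 of the 7 (Afp, Dab2, Foxa2, Gata4 and Gata6) passed the threshold of the study as higher on D5 and not the adjusted p. Of 5 trophoblast markers, Krt7 and Tfap2c passed it as higher on D5, and Elf5 was under 1 CPM in every library. Their sum was 83.7, 329, 87.6 and 243 CPM on the ground and 48.6, 462, 116 and 111 CPM in space, led by Tfap2c at 100.8 CPM. The sum of the 7 fibroblast markers lay between 22.9 and 50.8 CPM and was led by Thy1 at 22.3 CPM. The list was split: Col3a1, Dcn, Lum and Postn were under 1 CPM in every library. Col1a1 lay between 3.85 and 10.4 CPM, and Col1a2 between 0.299 and 8.88 CPM. The 4 fibroblast markers tested all had log2 fold changes above 0 on D5, and Col1a2 passed the threshold of the study as higher, at 3.97 against 1.07 CPM. The early neural list went the other way on D5, with 3 of 4 below 0, a median log2 fold change of -0.92, and Pax6 past the threshold of the study as lower, at 0.396 against 1.95 CPM. Other gene models overlap 27.9% of the Pax6 and 18.7% of the Dab2 exon length, so part of their counts may belong elsewhere.

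Whether the difference between space and ground depended on genotype or duration was tested by interaction terms. In edgeR 0 of the 10 genes passed an adjusted p of 0.05 in any of the 3 terms, and over 22659 genes the share called was 0% for location with genotype, 0.00441% for location with duration (1 gene) and 0% for genotype with duration. At an unadjusted p under 0.05 there were 2, 1 and 0 of the 10 and 700, 1451 and 983 of all genes, and DESeq2's Wald test called 34, 85 and 159 genes with 0 of the 10. The 2 in the location and genotype term were Srxn1, at -1.79 (SE 0.64), and Gclm, at -2.06 (SE 0.70), both more negative in R9del. The 1 in the location and duration term was Slc7a11, at 1.56 (SE 0.68), more positive on D5. None of the 3 passed the correction, with adjusted p of 1.0, 1.0 and 0.743 in edgeR, so a difference of the space effect between genotypes or durations was not called for these genes.

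Pairs of single libraries that differ in 1 variable allow no test, and a fold of 2 in TMM-scaled CPM served as a description over 17597 genes with at least 1 CPM somewhere. Of the 120 values of the 10 genes in the 12 pairs, 34 were past a fold of 2, where by pair 12.7% to 36.1% of all genes were. In Space_R9wt_D1 against Ground_R9wt_D1, Srxn1, Nqo1, Gsr and Slc7a11 were lower, 4 of 10 genes. Of all genes, 34.0% were past the fold in either direction, and 3492 of the 17597 were lower. In Space_R9wt_D5 against Ground_R9wt_D5, Keap1, Nqo1, Hmox1 and Gclm were higher, 4 of 10. Here 36.1% of all genes were past it in either direction, and 2958 of the 17597 were higher. In the R9del D1 pair, Srxn1 and Gclm were lower in space, 2 of 10 against 21.1% of all genes in either direction and 2114 lower. In the R9del D5 pair, Srxn1, Gclm and Gsr were lower in space, 3 of 10 against 22.9% in either direction and 2654 lower. The medians of the 10 genes in these 4 pairs were -0.61, 0.60, -0.47 and -0.42, against -0.10, -0.002, 0.0155 and -0.0219 over all genes. Counted in both directions, the numbers in these pairs are near the shares of all genes. Those of the 10 genes past the fold went in a single direction in each pair, where fewer of all genes were past it. Whether the 10 genes differ from all genes in this was not tested.

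Between genotypes, the ground D5 pair had the most of the 10 genes past the fold. Keap1, Srxn1, Nqo1, Hmox1, Gclm and Gsr were higher in R9del, 6 of 10. Of all 17597 genes, 31.5% were past it in either direction and 2908 were higher. The ground D1 pair had Srxn1 and Nqo1 higher, 2 of 10 against 22.7% in either direction and 1910 genes higher. In the space D1 pair Nqo1 and Slc7a11 were higher, 2 of 10 against 34.3% in either direction and 3229 genes higher. In the space D5 pair Nfe2l2 and Gclm were lower, 2 of 10 against 25.3% in either direction and 2379 genes lower. The low values of Ground_R9wt_D5 enter the ground D5 pair and also the R9wt D5 pair of space and ground, since both share that library.

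Between durations, Keap1, Srxn1 and Hmox1 were lower on D5 in ground R9wt, 3 of 10. Of all 17597 genes, 29.1% were past the fold in either direction and 2489 were lower. In space R9wt, Keap1, Nqo1, Gsr and Slc7a11 were higher on D5, 4 of 10 against 27.6% in either direction and 2617 genes higher. In ground R9del, Gsr was higher, 1 of 10 against 12.7% in either direction and 1239 genes higher. In space R9del, Gclm was lower, 1 of 10 against 14.4% in either direction and 1423 genes lower. Over the 12 pairs the counts ran from 1 to 6 of 10, and the shares of all genes in either direction from 12.7% to 36.1%. Txnrd1 and Gclc were past the fold in none of them.

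**Figure D5:**
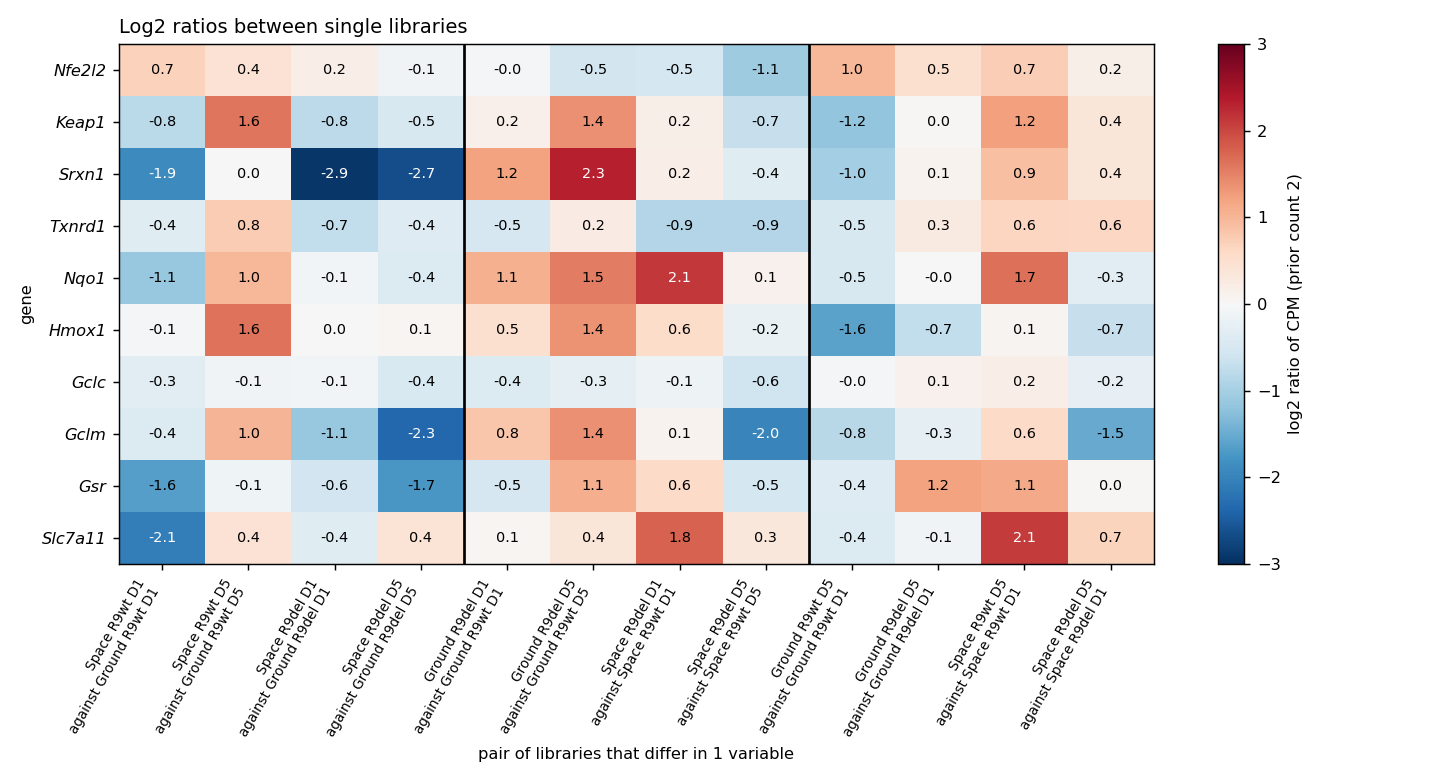
Log2 ratios of TMM-scaled CPM for the 10 genes in the 12 pairs of libraries that differ in 1 variable, with lower values in blue and higher values in red. Of the 120 values 34 are past a fold of 2, where by pair 12.7% to 36.1% of all genes are. Gclc is past it in no pair.

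Across the 8 libraries, the level of Nfe2l2 was set against that of the other 9 genes on log2 CPM, and none of the 9 relations passed correction. By Pearson r the largest in size were Hmox1, with Pearson r of -0.50 (exact permutation p = 0.21, adjusted p = 0.718 over 9 relations) and Spearman rho of -0.48 (exact permutation p = 0.243, adjusted 0.69), and Txnrd1, with r of 0.47 (exact permutation p = 0.248, adjusted p = 0.718) and rho of 0.43 (exact permutation p = 0.299, adjusted 0.69). Without Ground_R9wt_D5 and Space_R9wt_D5, the libraries farthest from the median of Nfe2l2, r was -0.61 for Hmox1 and 0.06 for Txnrd1, so the relation with Txnrd1 rests on those libraries. It also moved for Slc7a11, from -0.21 to -0.69, and for Keap1, from -0.09 to -0.53, in both cases over 6 libraries. By Spearman rho the largest in size was Nqo1 at -0.55 (exact permutation p = 0.171, adjusted 0.69), with Pearson r of -0.36 (exact permutation p = 0.377, adjusted 0.718) and -0.55 without those libraries. The points differ in condition and are not replicates.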

How the data were processed

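Per the labels, mRNA-Seq libraries of the 8 cultures were sequenced as paired reads on an Illumina HiSeq, and the authors ran FastQC, aligned to mm9 with TopHat2 2.0.9 and used edgeR. The deposited values are integer counts per gene (unit: count); the counting program, its annotation and its strand setting are not given in the sources used here. Library totals ran from 58238440 to 96416907 counts, so the floor of 3 counts is 0.0311 to 0.0515 CPM; such floors and other precision from depth cover counting error only.

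Counts were fitted in R 4.3.3 with edgeR 4.0.16: TMM factors, filterByExpr with a minimum count of 10, the quasi-likelihood test of 4 against 4 libraries, and Benjamini-Hochberg over all genes tested. Calls used an adjusted p under 0.05, or the threshold of the study, a fold of at least 2 with p under 0.05, read here as unadjusted. The paper does not say whether its p was adjusted. It reports fewer genes than its threshold took here, 2254 for space against ground and 2835 for R9del against R9wt. For Rad9 deletion the paper reports more genes higher than lower. Here the same threshold took 1267 as higher and 1568 as lower in R9del. Exact permutation tests of single genes were two-sided. CPM are TMM-scaled, and single-library ratios used a prior count of 2. Alternatives were DESeq2 1.42.0 (size factors, Wald test), edgeR's exact test, library size alone, no filter, covariates, a block of matched cultures, and leaving out each library. Genome-wide correlations between single libraries of the groups compared were 0.283 to 0.609 for matched cultures and -0.496 to 0.302 for others. Matched cultures share, by design, the variables not compared. They were treated as paired in the block, while the main fits were unpaired. Figures and tables used Python 3.11.15, pandas 2.3.3, numpy 2.4.6, scipy 1.17.1 and matplotlib 3.10.9.

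The 10 genes were matched by Ensembl identifier, Rad9a through the older symbol Rad9 and Tfap2c through Tcfap2c; the neural marker Sox1 was not matched. Named besides them are Rad9a, genes of the 7 pathway lists and 6 marker lists called by either rule or, up to 4 a list, by highest mean CPM, and genes among the 5 at each end of likeness to Nfe2l2. Markers under 1 CPM in every library (Dcn, Lum, Postn, Elf5) are named outside that rule, after their values were seen. The 10 genes and the lists were chosen with earlier results of these data known. The GC-window check was chosen after the data were seen.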

Additional observations from a re-analysis of the deposited data

Results flagged for a closer look

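In 90 groups of 4 libraries, 3 held 1 library whose gap to its nearest neighbour took up most of the range of the group; chance alone marks about 1 in 20 groups. Among the D5 libraries, Srxn1 stood apart at 96.4 CPM in Ground_R9del_D5. Among the R9wt libraries, Hmox1 stood apart at 81.0 CPM in Ground_R9wt_D5, below the others. Among the D1 libraries, Maff stood apart at 46.1 CPM in Ground_R9wt_D1.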

How the results depend on the processing

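With 1 library per condition, leaving out a library leaves 3 against 4 libraries, and depth allowed counts of at least 143 for each of the 10 genes. No scaling moved the median of all genes by over 0.1 on the log2 scale. In space against ground, the number of genes called was 2384 with DESeq2's Wald test, 2113 with covariates and 838 to 1240 without 1 library, the lowest without Ground_R9del_D5. Of the 10 genes, the adjusted p called 2 with edgeR's exact test (1780 of all genes), 0 with the block (1740 of all genes) and 0 to 1 without 1 library. The threshold of the study called 1 with library size alone (2250 of all genes) and 1 with the Wald test (2462 of all genes). Without 1 library it called 1 to 2 of the 10 and 2106 to 2459 of all genes. In R9del against R9wt, the genes called were 157 with no filter, 2054 with the Wald test, 1439 with the exact test, 1670 with the block, 1481 with covariates and 0 to 525 without 1 library. Of the 10 genes the Wald test called 1 there, and the threshold of the study called 0 to 2 without 1 library (2317 to 3509 of all genes). In D5 against D1, the Wald test called 96 genes and the exact test 35, and the threshold of the study took 1284 with no filter and 1101 with covariates. The interaction terms gave 34, 85 and 159 genes with the Wald test, and 0 for location with duration without the covariate. At a fold of 1.5, 53 of the 120 single-library values were past the fold. The share of all genes at that fold was not counted, so the 53 cannot be set against a background.

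Some log2 fold changes near 0 turned sign. Srxn1 in D5 against D1, at -0.01, was 0.0914 with the block, 0.22 with covariates and ran from -1.09 to 0.88 without 1 library, and its genotype and duration term, at -0.05, was 0.49 without the covariate. Without 1 library, in space against ground Keap1 ran from -0.45 to 0.0156, Txnrd1 from -0.40 to 0.10, Nqo1 from -0.35 to 0.18, Hmox1 from -0.0177 to 0.56 and Slc7a11 from -0.45 to 0.15. In R9del against R9wt, Keap1 ran from -0.0615 to 0.48, Gclm from -0.0164 to 0.65 and Gsr from -0.30 to 0.47. In D5 against D1, Keap1 ran from -0.0677 to 0.41, Nqo1 from -0.24 to 0.34, Gclc from -0.0669 to 0.15 and Gclm from -0.75 to 0.000468. Pearson r of Nfe2l2 with Gclc, 0.35, was -0.23 without the 2 R9wt D5 libraries. The cause was not tested in any of these.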

Other observations

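Out of 10300 genes whose average reached 8 CPM, those whose log2 CPM followed Nfe2l2 closely over the 8 libraries included Tinagl1 (Pearson r of 0.98), Plin2 (0.98), Eps8l2 (0.96) and Efemp2 (0.96). Plin2, which coats lipid droplets, stood at 72.6, 203, 72.8 and 103 CPM on the ground and at 188, 355, 110 and 103 CPM in space, in the order R9wt D1, R9wt D5, R9del D1, R9del D5. As for Nfe2l2, its highest libraries were the R9wt D5 cultures. At the other end were Akr1b3 (-0.98), Hsd17b14 (-0.97), Pop1 (-0.96), Pinx1 (-0.96) and Dph1 (-0.96). Akr1b3, aldose reductase, stood at 586, 279, 613 and 343 CPM on the ground and at 269, 140, 507 and 458 CPM in space, lowest in Space_R9wt_D5. These are the ends of a ranking over all genes and 8 unlike libraries, given as a description.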
